A study of Homo sapiens with 4 samples.

Results

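Actin cytoskeleton genes and targets of the transcription factor SRF were followed in HEK293 cells, a human embryonic kidney line, after small interfering RNA (siRNA) against MIF. The set is a list of 45 genes that make actins, tropomyosins and actin-binding proteins or respond to SRF or YAP. It was drawn up by gene function, with earlier results of these data known. Of these, 42 had at least 1 probe named by the platform gene table, all 42 were compared, and TPM3, FHL1 and FLNA had none under those symbols. The comparison covered 13755 genes in all.

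The study measured total RNA on 4 Illumina Human-6 bead arrays 24 h after treatment. The MIF siRNA arrays, called 1# and 2# as in the labels, held RNA of cells given siRNA against MIF with a Lipofectamine reagent. A single control RNA array held cells given a control RNA with the same reagent, and a single untreated array held normal HEK293 cells. The study's design names siRNA doses of 50 and 100 pmol/ml, but the labels give a dose only for 2#, 50 pmol/ml, and do not say whether both arrays had the same siRNA. All groups are 1 cell line, and the labels do not mention separate cultures, so p-values measure the spread between these arrays, which may be technical. The fit of 2 arrays against 2 takes 1# and 2# as 1 group and control RNA and untreated as the other. Its spread therefore also holds the difference between the control conditions and any difference of dose or siRNA between 1# and 2#.

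SRF binds DNA at A/T-rich elements called CArG boxes and turns on actin and actin-binding genes. Its cofactors, the MRTF proteins, are held back by unpolymerised actin monomers, so the state of the cytoskeleton feeds back on these genes. The Hippo pathway coactivators YAP and TAZ act through the TEAD factors, also respond to cytoskeletal tension, and share several targets with SRF.

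Values below are quantile-normalized signals of the brightest probe of each gene, a linear brightness that can be set side by side between arrays but not between genes. The median deposited signal of the arrays lay between 71.9 and 78.5. The MIF signal, the check of the siRNA, was 11614 in 1# and 17040 in 2# versus 22463 with control RNA and 21908 untreated, which is 51.7% and 75.9% of control RNA. The log2 difference of MIF from both control arrays was -0.66 ± 0.18 (SE, 2 arrays against 2), with a limma adjusted p of 0.0744. Of the 9 measured HEK293 markers, 8 lay above the median of all probes (75.6), and their summed signal was lowest in 1#, at 33194 against 38082 to 40384 in the other arrays. KRT18, a keratin, had signals of 12269 in 1#, 16965 in 2#, 17367 in control RNA and 18466 in untreated cells. Other markers of the list went the opposite way: VIM, which encodes vimentin, had 8792 and 7094 in 1# and 2# versus 5965 and 6322 in the controls, EYA1 had 222 and 152 versus 103.5 and 112, and INA had 117.7 in 1# versus 89.7 to 90.8 elsewhere. PAX2 was near background in each array, at 67.6 to 74.6. The part of these marker differences in the results below was not tested. Of the 5 smooth muscle markers, which would show actin-rich cells of that type, none exceeded 127.5 and the summed signal lay between 446 and 472 in the 4 arrays, and that of the 7 fibroblast markers between 1025 and 1129. Single fibroblast markers stood on either side of the controls within that sum, with COL3A1 at 257 and 134 in 1# and 2# versus 105.1 and 105.4 in the controls, PDGFRB at 88.9 and 78.9 versus 69.7 and 70.4, and COL1A1 at 232 and 304 versus 323 and 341. The part of these fibroblast marker differences was likewise not tested. In RNA from whole cultures, fewer cells of a type and less RNA per cell cannot be told apart.

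ACTA2 stood above the control arrays and TAGLN, TPM1, TAGLN2, FHL2 and ACTBL2 stood below them, while SRF itself differed little. Of the 42 genes, 18 were lower in both MIF siRNA arrays than in both control arrays (42.9%), and 7 were higher in that way (16.7%). Over all genes compared, 28.7% were lower and 32.6% higher by this rule, so the list held more non-overlapping genes on the lower side and fewer on the higher side than the array as a whole. In either direction together the shares were 59.5% of the list and 61.4% of all genes. The median log2 difference of the list was -0.09, against 0.01 over all genes. It was -0.20 without 2# and -0.046 without 1#, with all-gene medians of 0.0038 and 0.014. With median scaling of the arrays in place of quantile normalization, 17 members were lower and 9 higher, beside 17.4% and 46.8% of all genes.

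limma, fitted over all 13755 genes on MIF siRNA against both control arrays with Benjamini-Hochberg adjustment, called 0 members at an adjusted p of 0.05, as it called 0% of all genes. The adjusted p of the members ran from 0.0501 to 0.992. At an unadjusted p under 0.05 there were 17 members (40.5%), beside 29.7% of all genes. Of these, 14 were lower (33.3%, against 12.7% of all genes) and 3 were higher (7.14%, against 17% of all genes). The count of 0 rested on both MIF siRNA arrays being kept: without 1# limma called 10 members and 11.2% of all genes, and without 2# it called 20 members and 33.6% of all genes, the lone array being assumed to vary like the control pair. At least 1.5-fold in each of the 4 pairings of treated and control arrays, ACTBL2 and TAGLN were lower (4.76% of the members, 0.4% of all genes) and 0 members higher (0.742% of all genes). Without 2# that rule gave 8 members lower and 2 higher, beside 538 and 705 of the 13755 genes, and without the untreated array 3 lower and 1 higher, beside 136 and 225 genes. With median scaling of the arrays it gave 1 member lower (ACTBL2) and 1 higher (ACTA2), beside 24 and 238 genes.

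**Figure D1:**
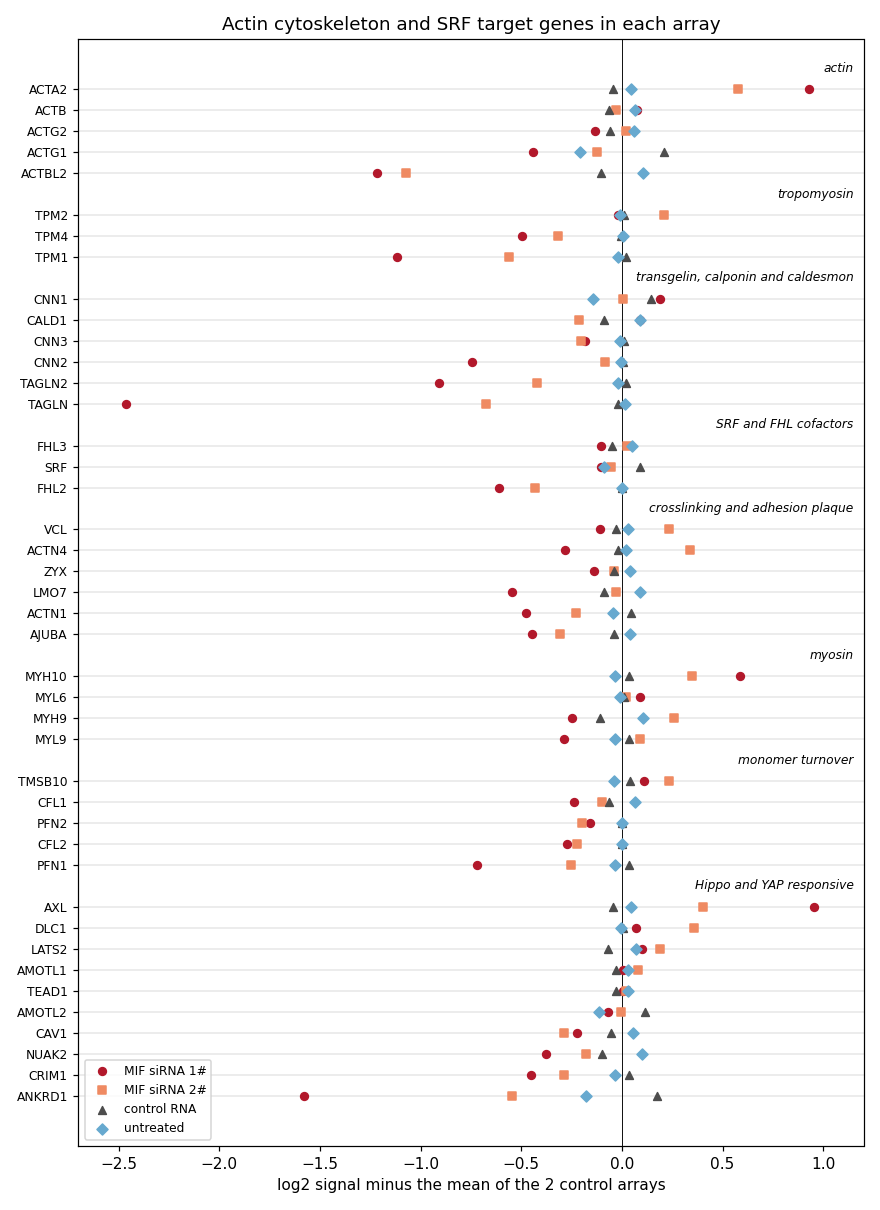
Log2 signal of the 42 measured genes in each array, as the difference from the mean of the 2 control arrays (horizontal axis), with genes grouped by role; circles are MIF siRNA 1#, squares 2#, triangles control RNA and diamonds untreated cells. TAGLN in 1# lies furthest to the left, at -2.46, and both MIF siRNA arrays lie left of both control arrays in 18 genes.

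Among the actins, 1 gene was higher and 1 lower in both MIF siRNA arrays, beside 32.6% and 28.7% of all genes. The other 3 overlapped with the controls. ACTA2, the actin of smooth muscle, had a signal of 6213 in 1# and of 4871 in 2# versus 3166 with control RNA and 3361 untreated. Both MIF siRNA arrays were thus above both controls, by 1.45-fold at the least and 1.96-fold at the most. The log2 difference was 0.75 ± 0.13 (SE, 2 arrays against 2), with a limma adjusted p of 0.0501.

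ACTBL2, which encodes an actin closely related to the cytoplasmic forms, had a signal of 143 in 1# and of 159 in 2# versus 311 with control RNA and 359 untreated. The arrays did not overlap, and the smallest of the 4 differences was 1.95-fold. Its log2 difference was -1.15 ± 0.11 (SE, limma adjusted p 0.0501), and 1# and 2# were 1.11-fold apart.

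The cytoplasmic actins, which build the microfilaments of non-muscle cells, overlapped with the controls on their brightest probes. ACTB had signals of 27717 in 1#, 25804 in 2#, 25207 in control RNA and 27524 in untreated cells. Its other 2 probes were lower in all 4 pairs, at 19692 and 22051 against 26468 and 23005 for the first and 20735 and 23446 against 25106 and 24706 for the second. The ACTB probes therefore disagreed, with log2 differences of 0.02, -0.24 and -0.18.

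ACTG1 had a signal of 12599.8 in 1# and of 15721 in 2# versus 19784.5 with control RNA and 14794 untreated. Here the control arrays were themselves 1.34-fold apart, the widest gap between them among the members (0.42 on the log2 scale), and 2# lay between them. ACTG2, the actin of enteric smooth muscle, had signals of 72.6, 80.8, 76.25 and 83.0 in 1#, 2#, control RNA and untreated cells, near the median of all probes, so a fold change could not be read. Actin transcripts are alike over long stretches, and whether a probe named for 1 actin also binds another was not tested, because probe sequences were not used here.

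**Figure D2:**
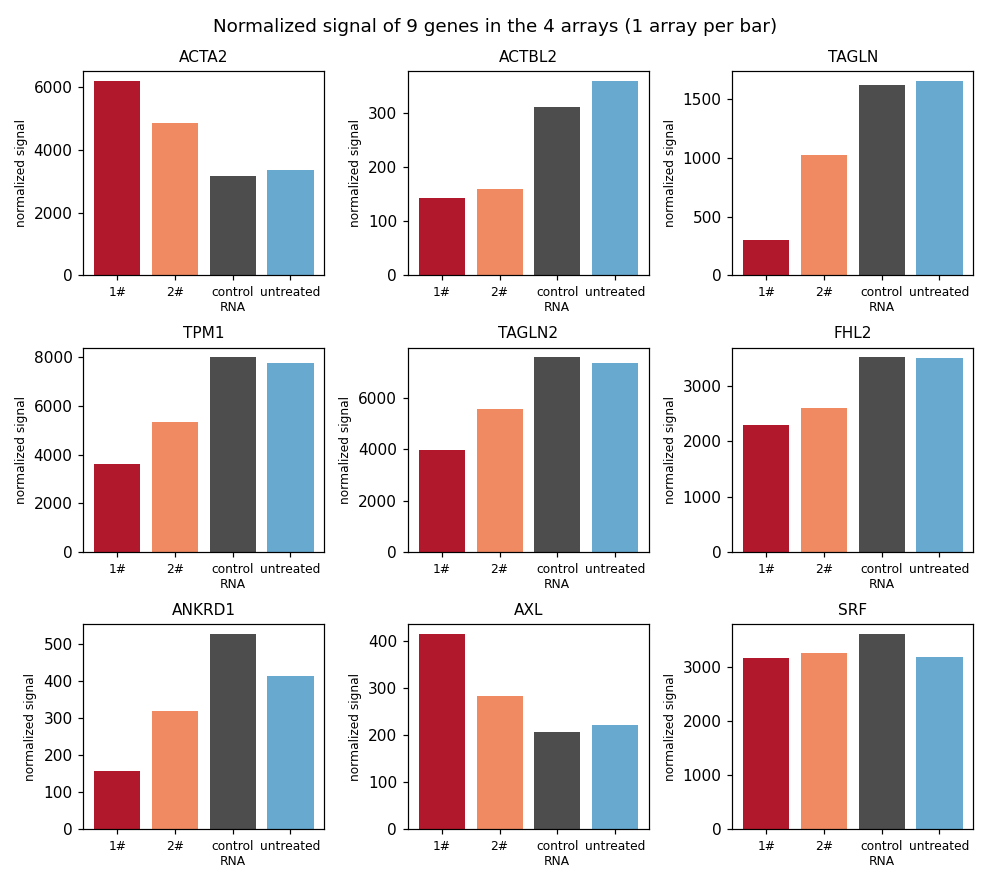
Normalized signal (vertical axes, linear and starting at 0) of 9 genes in MIF siRNA 1#, MIF siRNA 2#, control RNA and untreated cells, with 1 array per bar and no error bars. ACTA2 and AXL are highest in 1#, TAGLN stands at 298 in 1#, and SRF lies between 3166 and 3615 in all 4 arrays.

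Tropomyosins are coiled-coil proteins that lie along actin filaments and set which myosins and severing proteins reach them. TPM1 had a signal of 3624 in 1# and of 5333 in 2# versus 7983 with control RNA and 7751 untreated. The control arrays lay within 1.03-fold of each other and both MIF siRNA arrays were below them, by 1.45-fold to 2.20-fold, with a log2 difference of -0.84 ± 0.18 (SE, limma adjusted p 0.0546).

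TPM4, a cytoplasmic tropomyosin, gave signals of 1166 (1#) and 1317 (2#) versus 1639 with control RNA and 1647 untreated, a log2 difference of -0.41 ± 0.10 (SE, limma adjusted p 0.062). TPM2 had signals of 309 in 1#, 362 in 2#, 315 in control RNA and 312 in untreated cells on its brightest probe, and a dimmer probe had 180.05 and 213.5 against 166 and 171. Its dimmest probe had 80.4 and 85.7 against 84.8 and 84.0, near the median of all probes, and overlapped with the controls. The tropomyosins thus did not move as a block: TPM1 and TPM4 lay below both controls. TPM2 overlapped with the controls on its brightest and dimmest probes and lay above them on the probe between. Whether TPM2 differs from TPM1 in its response was not tested.

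Transgelins and calponins share a calponin homology fold and bind along actin filaments. TAGLN, which encodes transgelin or SM22, a textbook SRF target of smooth muscle, had a signal of 298 in 1# and of 1026 in 2# versus 1621 with control RNA and 1661 untreated. The control arrays were 1.02-fold apart, 2# was 1.58-fold below control RNA and 1# was 5.45-fold below it. The log2 difference of -1.57 ± 0.51 (SE, limma adjusted p 0.106) has a wide error because the MIF siRNA arrays were 3.45-fold apart, and it was -0.68 without 1# and -2.46 without 2#.

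TAGLN2, the transgelin of non-muscle cells, gave signals of 3982 (1#) and 5569 (2#) versus 7577 with control RNA and 7355 untreated. Its second probe gave 1817 and 2567 against 4128 and 3047, so both probes were lower in all 4 pairs, with log2 differences of -0.66 (SE 0.16, limma adjusted p 0.0635) and -0.72. On the brighter probe the difference was -0.42 without 1# and -0.91 without 2#. The second TAGLN probe was near background in every array, at 51.5 to 60.5, and gave no reading.

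CNN2, a calponin of non-muscle cells, had a signal of 1155 in 1# and of 1829 in 2# versus 1942 with control RNA and 1933 untreated. Only 1# was far from the controls, at 1.68-fold below control RNA, while 2# was within 1.06-fold of both. CNN3, the acidic calponin, had 6738 and 6642 against 7715 and 7606, lower in all 4 pairs by at most 1.16-fold. CNN1, the smooth muscle calponin, and CALD1, the filament-stabilising caldesmon, overlapped with the controls, with log2 differences of 0.10 and -0.06.

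SRF, the factor after which these targets are named, had signals of 3166 in 1#, 3270.5 in 2#, 3615 in control RNA and 3196 in untreated cells. Both MIF siRNA arrays were within 1.02-fold of the untreated array and at most 1.14-fold below control RNA, and the log2 difference was -0.08 ± 0.10 (SE, limma adjusted p 0.64). FHL2, a LIM-only protein that binds SRF and is itself an SRF target, gave signals of 2299 (1#) and 2603 (2#) versus 3516 with control RNA and 3509 untreated. The control arrays were nearly equal, both MIF siRNA arrays were below them, and the log2 difference was -0.52 ± 0.10 (SE, limma adjusted p 0.0518). FHL3, its relative in muscle, overlapped with the controls, with a log2 difference of -0.04.

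Among genes of filament crosslinking and adhesion plaques, 2 of 6 were lower in all 4 pairs and 0 were higher. Over all genes these shares were 28.7% and 32.6%. ACTN1, an alpha-actinin that bundles filaments, gave signals of 1579 (1#) and 1877 (2#) versus 2267 with control RNA and 2127 untreated, a log2 difference of -0.35 ± 0.11 (SE, limma adjusted p 0.101). AJUBA, a LIM protein of junctions that binds LATS kinases, had 279.99 and 308.5 against 371 and 392, and each of its 3 probes was lower in all 4 pairs. Its dimmest probe, at 71.3 and 71.7 against 85.6 and 76.1, lay near the median of all probes, so no fold change could be read from it.

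ACTN4, the other non-muscle alpha-actinin, was split between the MIF siRNA arrays, with 1747 in 1# and 2683 in 2# against 2097 and 2153.5 in the control arrays. VCL, which encodes vinculin and links actin to integrin adhesions, was split in the same sense, at 6458 in 1# and 8199.99 in 2# against 6818 and 7114. In both genes 1# was below both controls and 2# above them. ZYX, the plaque protein zyxin, and LMO7, which links actin to cell junctions, overlapped, with log2 differences of -0.09 and -0.29.

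Of the myosin genes, the heavy chain gene MYH10 was higher in both MIF siRNA arrays. MYH10, which encodes non-muscle myosin IIB, gave signals of 7718 (1#) and 6543 (2#) versus 5276 with control RNA and 5024 untreated, with a log2 difference of 0.46 ± 0.11 (SE, limma adjusted p 0.0604). MYH9, which encodes non-muscle myosin IIA, had 6819 in 1# and 9670.2 in 2# against 7515 and 8713, with 1# below and 2# above both controls. The light chain gene MYL6 was at most 1.07-fold above the controls in all 4 pairs, and MYL9, the SRF-responsive regulatory light chain, overlapped with them (146 in 1#, 190 in 2#, 182 in control RNA and 174 in untreated cells).

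Of the 5 genes that handle actin monomers, 4 were lower and 1 higher in all 4 pairs, beside 28.7% and 32.6% of all genes. PFN1, the main profilin, which loads monomers onto growing filament ends, had a signal of 5753 in 1# and of 7968 in 2# versus 9709 with control RNA and 9260.2 untreated. The MIF siRNA arrays lay below both controls, by 1.69-fold at the most, with a log2 difference of -0.49 ± 0.16 (SE, limma adjusted p 0.105). PFN2, a profilin prominent in neurons, had 4062 and 3946 against 4529 in each control array on its brightest probe, while its second probe had 242 and 277 against 442 and 438. Both PFN2 probes were lower in all 4 pairs but disagreed in size, at -0.18 and -0.77 on the log2 scale.

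CFL1, the non-muscle cofilin, which severs old filaments, had a log2 difference of -0.17 ± 0.10 (SE, limma adjusted p 0.314). CFL2, the muscle cofilin, gave signals of 373 (1#) and 385 (2#) versus 450 and 451 in the controls. TMSB10, a thymosin that sequesters monomers, was the member of this group on the higher side, with 22355 and 24338 versus 21298 with control RNA and 20172 untreated. Its largest difference was 1.21-fold.

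Of the 10 members tied to YAP and the Hippo pathway, 4 were lower and 3 higher in all 4 pairs, beside 28.7% and 32.6% of all genes. ANKRD1, a nuclear ankyrin repeat protein and a widely used YAP target, had a signal of 155 in 1# and of 319 in 2# versus 525 with control RNA and 411 untreated. Both MIF siRNA arrays were below both controls, 1# by 3.38-fold from control RNA, and the log2 difference was -1.06 ± 0.32 (SE, limma adjusted p 0.0923). It was -0.55 without 1# and -1.58 without 2#.

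AXL, a receptor tyrosine kinase and also a YAP target, lay on the opposite side, with 416 in 1# and 284 in 2# versus 208 with control RNA and 222 untreated. The arrays did not overlap, and the log2 difference was 0.68 ± 0.18 (SE, limma adjusted p 0.0715), with 0.40 without 1# and 0.95 without 2#. Those YAP targets, ANKRD1 and AXL, thus stood on opposite sides of the controls in both MIF siRNA arrays.

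DLC1 had a signal of 182 in 1# and of 222 in 2# versus 174 with control RNA and 173 untreated. Its second, dimmer probe overlapped with the controls, at 81.5 and 84.3 against 84.1 and 82.8. LATS2, a Hippo kinase that restrains YAP, had 187 and 199 against 167 and 183. On their brightest probes both genes were above the controls in all 4 pairs, by at most 1.29-fold for DLC1 and less for LATS2. Their limma adjusted p-values were 0.272 and 0.362.

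CRIM1, a transmembrane regulator of BMP ligands, had 350.1 and 392 in 1# and 2# against 489.5 and 468, a log2 difference of -0.37 ± 0.10 (SE, limma adjusted p 0.0707). CAV1, which encodes the caveolar coat protein caveolin-1, had a log2 difference of -0.25, and NUAK2, an AMPK-related kinase, one of -0.28, both lower in all 4 pairs. AMOTL1 and AMOTL2, angiomotin-like proteins that hold YAP out of the nucleus, and TEAD1 had signals of 79.3 to 93.4 over the 4 arrays, near the median of all probes, and no fold change could be read for them.

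The arrays 1# and 2# were not equivalent for this gene set. Of the 42 genes, 32 were lower in 1# than in 2# (76.2%, against 49.9% of all genes). With median scaling of the arrays the count was 31, against 40.7% of all genes. In 1#, 8 members were at least 1.5-fold below both control arrays (19% of members, 3.91% of all genes): ACTBL2, TPM1, TAGLN, TAGLN2, CNN2, FHL2, PFN1 and ANKRD1. Array 2# lay between 1# and both controls in 19 members (45.2%, against 45.6% of all genes). In 2# the genes past the 1.5-fold line were ACTBL2 and TAGLN (0.422% of all genes).

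Above both controls by 1.5-fold were ACTA2 and AXL in 1# (5.13% of all genes) and 0 members in 2# (0.872% of all genes). Directly compared, TAGLN, CNN2, ACTN4 and ANKRD1 were at least 1.5-fold lower in 1# than in 2# (9.52% of members, 0.931% of all genes), and 0 were higher (1.21% of all genes). MIF itself was 1.47-fold lower in 1#. The labels leave dose and siRNA of 1# unstated, so the part of either in these gaps was not tested.

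**Figure D3:**
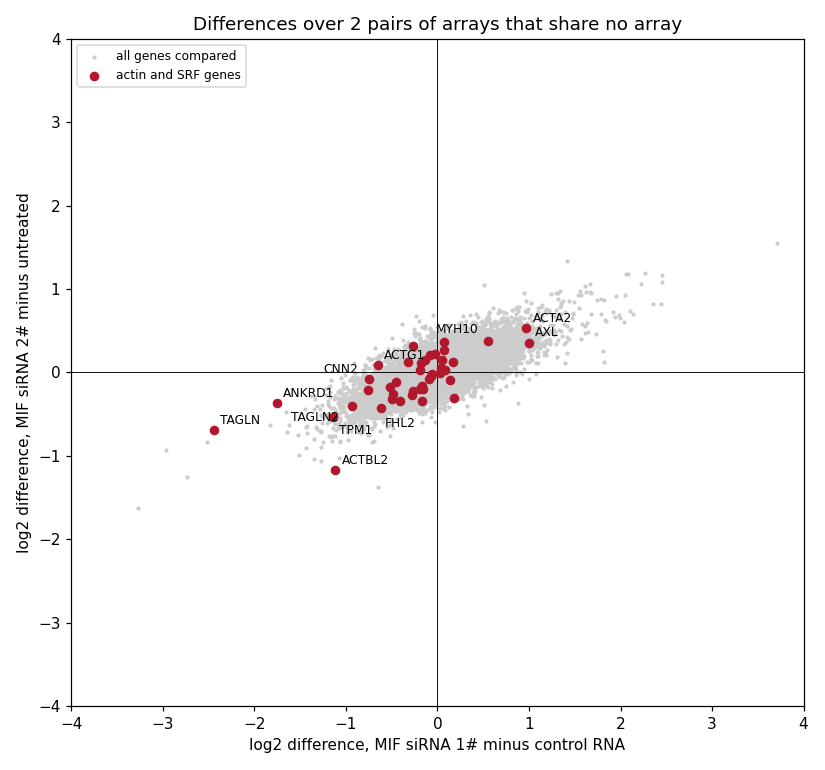
Log2 difference of MIF siRNA 1# minus control RNA (horizontal axis) and of 2# minus untreated cells (vertical axis), a choice of pairs that share no array, for all 13755 genes (grey) and the 42 actin and SRF genes (red). ACTBL2, TAGLN, TPM1 and ANKRD1 lie at the lower left, and ACTA2, AXL and MYH10 at the upper right.

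Over those pairs without a shared array, 22 members were below their control in both and 9 were above it in both. The corresponding shares of all genes were 34% and 37.7%.

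With control RNA these genes lay close to the untreated level, in 1 array of each. The median absolute log2 difference between control RNA and untreated cells was 0.08 for the members and 0.09 for all genes, and 0 members were 1.5-fold apart (0.0945% of all genes). limma on group means, with 1 residual degree of freedom, takes its spread from the gap between 1# and 2#. With 1 array of each control it holds no spread of the controls. It therefore cannot judge control RNA against untreated cells, and no conclusion is drawn from it there. The same fit called 0 members for MIF siRNA against control RNA, with 11 at an unadjusted p under 0.05 (16.8% of all genes), and 0 against untreated cells, with 9 (12.8% of all genes). These comparisons share the MIF siRNA arrays. ACTBL2 had log2 differences of -1.04 from control RNA and -1.25 from untreated cells, TPM1 of -0.86 and -0.82, and ACTA2 of 0.80 and 0.71.

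Several probes of a gene gave a second reading for 15 members. Of their 18 further probes, 13 had a mean signal above the median of all probes. The sign of the difference was that of the brightest probe in 9 of these. In 0 of them did both probes clear the controls on opposite sides. In 6 of the 13 both probes were on the same side in all 4 pairs, namely for TAGLN2, CNN2, CFL2, PFN2 and both further AJUBA probes. The further CFL2 probe, at 95.7 to 105.1, and the further AJUBA probes, at 71.3 to 117.3, lay near the median of all probes. They are therefore weak second readings. The 5 dim probes, among them those of TAGLN, TPM1 and FHL2, gave no usable reading, so the values of these genes rest on 1 probe each.

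**Figure D4:**
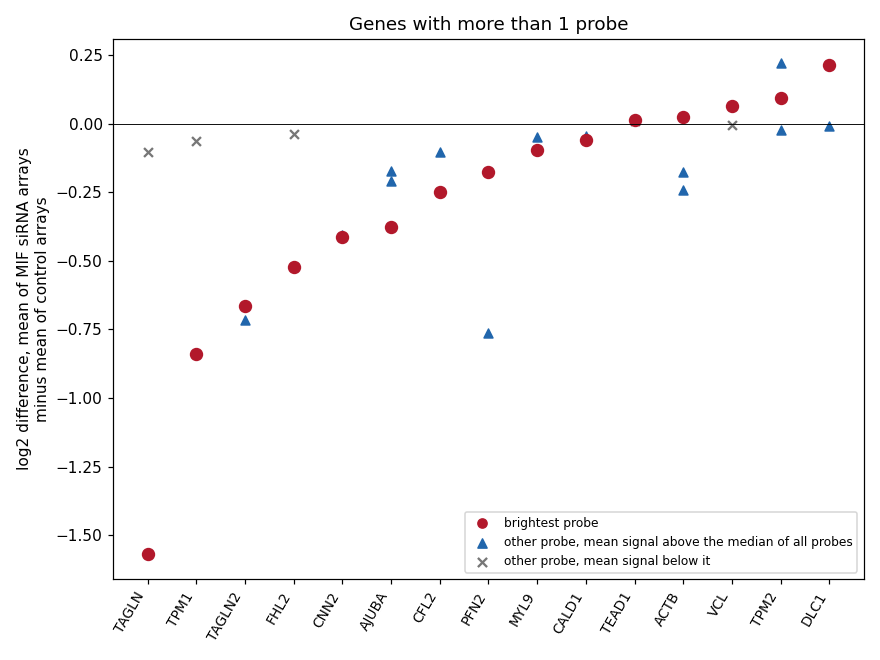
Log2 difference between the mean of the MIF siRNA arrays and the mean of the control arrays for each probe of the 15 genes with more than 1 probe; circles are the brightest probe, triangles other probes above the median signal of all probes, and crosses probes below it. The PFN2 probes lie at -0.18 and -0.77, and the crosses of TAGLN, TPM1 and FHL2 lie between -0.10 and -0.04. The further probes of CNN2 and TEAD1 are hidden behind the circles.

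Promoters were read to show which of these genes carry the SRF element near their start. The windows are those of RefSeq on GRCh38.p14, 250 bases before to 50 after a start, and 38 of the 45 listed genes had at least 1. A CArG box was searched as CC, 6 bases that are each A or T, and GG, a pattern that reads as the same search on both strands, and the TEAD motif as GGAATG on both strands. The 250 bases upstream of the start are printed for ACTA2, ACTBL2 and TPM1, members on either side of the controls, and for the measured CArG carriers with the largest differences, FHL2 and CNN2, with matches in capitals. In the printed ACTA2 window the capitals mark 2 CArG-like elements and a TEAD motif. Each such element has 1 base of the central 6 that is not A or T. In FHL2 and CNN2 the capitals mark a CArG box without mismatch, and ACTBL2 and TPM1 have no match. ACTA2 and FHL2 have more than 1 window, and 1 with a match is printed. The other ACTA2 window (chr10:88991338-88991587) has no match. An FHL2 window not printed (chr2:105399668-105399917) has a TEAD motif and no CArG box.
ACTA2, chr10:88952774-88953023, minus strand: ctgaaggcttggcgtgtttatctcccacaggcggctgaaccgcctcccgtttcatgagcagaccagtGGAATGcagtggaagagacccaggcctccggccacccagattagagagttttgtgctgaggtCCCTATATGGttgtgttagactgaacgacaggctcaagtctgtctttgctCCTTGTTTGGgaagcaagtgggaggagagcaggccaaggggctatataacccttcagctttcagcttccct
FHL2, chr2:105438514-105438763, minus strand: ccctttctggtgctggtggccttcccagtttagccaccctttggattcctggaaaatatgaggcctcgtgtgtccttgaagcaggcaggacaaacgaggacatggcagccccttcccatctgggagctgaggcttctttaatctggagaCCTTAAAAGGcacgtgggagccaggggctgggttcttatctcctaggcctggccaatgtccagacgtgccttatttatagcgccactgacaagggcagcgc
CNN2, chr19:1026358-1026607, plus strand: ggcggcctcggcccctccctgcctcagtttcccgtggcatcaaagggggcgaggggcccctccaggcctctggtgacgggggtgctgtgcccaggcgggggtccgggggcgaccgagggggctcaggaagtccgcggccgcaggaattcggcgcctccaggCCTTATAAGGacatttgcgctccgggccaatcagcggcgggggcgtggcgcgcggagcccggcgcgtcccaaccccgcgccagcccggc
ACTBL2, chr5:57482812-57483061, minus strand: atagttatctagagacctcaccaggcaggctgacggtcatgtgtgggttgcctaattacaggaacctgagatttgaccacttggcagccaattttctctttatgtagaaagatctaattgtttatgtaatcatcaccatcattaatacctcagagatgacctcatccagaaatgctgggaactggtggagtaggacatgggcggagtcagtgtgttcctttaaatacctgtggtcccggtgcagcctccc
TPM1, chr15:63048239-63048488, plus strand: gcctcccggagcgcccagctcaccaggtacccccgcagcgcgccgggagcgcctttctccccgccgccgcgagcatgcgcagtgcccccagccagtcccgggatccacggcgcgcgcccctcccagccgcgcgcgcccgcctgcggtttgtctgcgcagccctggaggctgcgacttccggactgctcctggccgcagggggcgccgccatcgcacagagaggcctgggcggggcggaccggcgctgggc

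A CArG box without mismatch stood in a window of 9 of the 38 genes (23.7%, against 1.6% of the 27305 genes with a window): SRF, ACTG1, ACTG2, TPM4, CNN2, FHL1, FHL2, ACTN1 and FLNA. The list was drawn up from genes known to respond to SRF, so this share describes the list and is not a result of the arrays. Of the 7 carriers with array values, TPM4, CNN2, FHL2 and ACTN1 were lower in all 4 pairs, 0 were higher, and the median log2 difference was -0.35. Of the 28 measured genes with a window and no CArG box, 11 were lower and 6 higher in all 4 pairs, with a median of -0.05. Over all genes compared, 28.7% were lower and 32.6% higher in this way. The part of the box in these differences was not tested.

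The TEAD motif stood in a window of 17 of 38 genes (44.7%, against 16.7% of all genes). Its 16 measured carriers had 7 genes lower and 4 higher in all 4 pairs, with a median of -0.13. The 19 measured genes without it had 8 lower and 2 higher, with a median of -0.09. Of all genes compared, 28.7% were lower and 32.6% higher by this rule. With 1 mismatch allowed in the central bases of the CArG box, 14 genes carried it (36.8%, against 9.88% of all genes). Of the 12 with array values, 5 were lower and 1, ACTA2, was higher in all 4 pairs, and the median was -0.17, so the median and the count of 0 higher genes depend on the mismatch rule.

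Other genes of the same pathways were read from 4 lists, and limma called 0 genes of any of them at an adjusted p of 0.05. At an unadjusted p under 0.05 the counts were 14 of 26 nucleation and turnover genes, 5 of 25 plaque genes, 5 of 17 Hippo genes and 3 of 13 muscle genes, beside 29.7% of all genes.

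Among genes of actin nucleation, capping and turnover, 12 of 26 were lower in all 4 pairs and 8 higher, with a median of -0.15. Over all genes the shares were 28.7% lower and 32.6% higher. ARPC2, a core subunit of the Arp2/3 complex that branches filaments, gave signals of 3639 (1#) and 4927 (2#) versus 7484 with control RNA and 7676 untreated, a log2 difference of -0.84 ± 0.15 (SE, limma adjusted p 0.0501). It was the gene of that list lower by 1.5-fold in all 4 pairs, beside 0.4% of all genes. ARPC3, another subunit of the complex, and TWF2, a twinfilin, both had log2 differences of -0.61, while GSN, the severing protein gelsolin, WASF2, an Arp2/3 activator, and TMOD1, a cap of pointed ends, had 0.61, 0.50 and 0.47.

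Of the adhesion plaque and cortex genes, 9 of 25 were higher and 3 lower in all 4 pairs, beside 32.6% and 28.7% of all genes, with a median of 0.08. LPP, a zyxin relative, gave signals of 3719 (1#) and 3278.5 (2#) versus 2243 with control RNA and 2492 untreated, and SVIL, which encodes supervillin, had 1776 and 1282.5 against 921 and 1119. SRC, the plaque tyrosine kinase, had a log2 difference of 0.38. On the lower side were SEPTIN11 and PARVA, an actin-binding partner of integrin-linked kinase, at -0.26 and -0.20, while TRIP6, another zyxin relative, overlapped at -0.11.

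Of 17 measured Hippo and YAP pathway genes, 6 were higher and 6 lower in all 4 pairs, with a median of 0.05. The shares of all genes were 32.6% and 28.7%. AMOT, the angiomotin that binds YAP, gave signals of 1406 (1#) and 991 (2#) versus 577 with control RNA and 706 untreated, a log2 difference of 0.89 ± 0.18 (SE, limma adjusted p 0.0543). VGLL4, which competes with YAP for TEAD factors, and TEAD2 were higher as well, at 0.62 and 0.33. WTIP, an AJUBA relative, and WWC1, which encodes the scaffold KIBRA, had log2 differences of -0.73 and -0.52, and TEAD4 overlapped at -0.37.

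Of the genes of the muscle contractile apparatus, 4 of 13 were higher and 4 lower in all 4 pairs, near the shares of all genes, with a median of -0.00. TNNT1, a troponin of slow muscle, gave signals of 6256 (1#) and 6936 (2#) versus 5243 with control RNA and 4556 untreated. MYLK, the kinase of myosin light chains, overlapped at 0.33, MYOM1 was on the higher side at 0.24, and TNNC1, CSRP1 and MYH11 on the lower side at -0.52, -0.41 and -0.21. MYH11, the smooth muscle myosin that accompanies ACTA2 in smooth muscle, had signals of 77.6 to 94.7 over the 4 arrays, near the median of all probes.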

How the data were processed

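The 4 Illumina Human-6 arrays, each with 1 colour and grouped by sample titles, measured HEK293 total RNA. The sample tables deposited by the authors hold 1 linear intensity per probe (48701 probes). BeadStudio is named in the submitters' processing notes, and background and normalization settings are not given in the sources used here. The smallest intensity was 39.8. The authors' series value table, matched by row position because its identifiers shift from row 19832 on, held 0 columns of other samples and served as an alternative.

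Intensities were quantile-normalized, set to a floor of 32 (0 values were below it) and log2-transformed. Of 23687 probes with 1 gene, 23651 matched RefSeq by Entrez identifier. The brightest probe stood for each gene, and genes with a mean signal above the median of all probes (75.6) were kept. MIF siRNA was tested against both control arrays (2 residual degrees of freedom) and on group means (1) with limma 3.58.1 in R 4.3.3, two-sided, with adjustment over all genes. The fits were tested on simulated data with 1 spread for all 4 arrays, taken from the gap between the control arrays. Over all genes the median absolute log2 gap was 0.085 between the controls and 0.122 between 1# and 2#. The simulation therefore did not cover the wider gap between the MIF siRNA arrays. The number of arrays limits the precision.

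The members and lists were chosen with earlier results of these data known. Given array by array are SRF, the actins, TAGLN, TPM1, members at least 1.5-fold apart in all 4 pairs, and the 6 highest and 6 lowest by difference; other members shown were chosen after their values were seen. Of each list, up to 3 genes each way are named. A further gene list is not reported here.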

Additional observations from a re-analysis of the deposited data

How the results depend on the processing

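For MIF siRNA against both control arrays, limma called 0 members, but 6 under median scaling of the arrays, 3 without a filter, 5 with a filter at percentile 75 and 6 with an intensity trend in the variance. Over all genes those settings called 1581, 590, 927 and 1007 genes in place of 0. Leaving out 1 array gave 0 to 20 called members (0 to 4624 of all genes), 0 to 2 members higher (120 to 705 of all genes) and 2 to 8 lower (58 to 538 of all genes) by the 1.5-fold rule, and a list median of -0.20 (without 2#) to -0.046. The count of members higher by 1.5-fold was 1 under median scaling, beside 238 genes. That of members lower was 1 with that scaling, beside 24 genes, and 1 with the mean of all probes, beside 44 of 13418 genes. Under a 2-fold rule 0 members were lower and 0 higher, beside 3 and 10 of the 13755 genes. On group means, ACTBL2 was the 1 member called against control RNA, and the 1 against untreated cells, with the variance trend, beside 76 and 22 of all genes. Motif carriers numbered 14 with a CArG mismatch allowed. For single genes, ACTB turned to -0.13 with the mean of all probes. Leaving out 1 MIF siRNA array, ACTB ranged from -0.030 to 0.074 and ACTG2 from -0.13 to 0.022. Single genes were not refitted without a control array. In 116 of the remaining settings of single genes the side of the threshold and the direction held, and in 40 a gene passed the threshold; the cause was not tested. The series value table, the normexp correction (offset 50) and the floor of 64 left the counts of members called and past 1.5-fold as they were. No paired analysis was possible because the control conditions have 1 array each. Signals near 75.6 hold mostly background, so folds of dim genes are understated.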
